A study of Mus musculus with 8 samples.

Results

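Genes of the MHC class II pathway and their activator Ciita were examined in primary cultured mouse microglia, the resident macrophages of the brain, with and without immunoglobulin G (IgG). The genes were chosen by symbol. They were the class II chains H2-Aa, H2-Ab1 and H2-Eb1, the peptide-loading chains H2-DMa and H2-DMb1, the invariant chain Cd74 and the transactivator Ciita, 7 of the 55385 genes in the count table. All libraries came from wild-type microglia of neocortex and hippocampus, grown from pooled brains of newborn mice, shaken off mixed cultures and replated. The IgG group received 10 µg/ml IgG for 24 h from day 15 in vitro (DIV15), and the control group had no IgG. Each group had 4 cultures, and a control and an IgG culture of the same replicate number carried the same date in their labels. Which step of the work that date marks is not given. The comparison asks which transcripts of antigen presentation differ when the cells meet IgG.

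Class II molecules present peptides of engulfed proteins to CD4+ T cells. An alpha chain and a beta chain pair in the endoplasmic reticulum around the invariant chain, which is cut away in endosomes, and the DM heterodimer then exchanges its last fragment for a peptide. Transcription of these genes depends largely on CIITA, which binds no DNA itself but docks on RFX, CREB and NF-Y factors at the class II promoters. Resting microglia are known for low class II levels, and interferon-γ is the classical inducer of Ciita. Class I molecules, which present peptides from inside the cell, have a related activator, Nlrc5, and respond to type I interferon as well.

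The libraries held 21287816 to 23703216 counts, and 3 counts, the most that an observed 0 leaves room for, equal 0.127 to 0.141 on the counts-per-million scale (CPM). The 7 genes together took 57.5 to 68.8 CPM of the library totals. Mitochondrial transcripts took 4.85% and 5.59% of the counts in IgG replicates 1 and 3, against 1.97% to 2.41% in the other libraries. Of 11 microglia markers, Csf1r had 25142 to 35631 counts per library and Cx3cr1 had 8794 to 14127, whereas Siglech had at most 9 counts and P2ry12 119 to 347. Of cells known for high class II levels, 5 of 6 B cell markers had at most 10 counts in every library. Of 8 dendritic cell markers, 4 had at most 10 counts in every library, among them Cd209a with no count. The integrin gene Itgax made up most of that list, with 631 to 804 CPM in control and 593 to 728 CPM in IgG libraries, and is expressed by cultured microglia as well. In bulk RNA, a difference in the number of cells of a type cannot be told apart from a difference in RNA per cell.

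H2-Aa (ENSMUSG00000036594) encodes the alpha chain of the I-A molecule, the class II molecule that common mouse strains share. It lies on the minus strand at chr17:34282744-34287823 of GRCm38. The control libraries held 1.16, 1.35, 0.837 and 1.72 CPM in replicates 1 to 4, and the IgG libraries held 1.25, 1.65, 0.736 and 1.46 CPM. These rest on 15 to 40 counts per library. The groups overlapped throughout, and replicate 3 was the lowest in both. The means were 1.27 ± 0.37 CPM in control and 1.27 ± 0.394 CPM in IgG cultures (SD, n = 4 each). The fitted log2 fold change was 0 with a standard error (SE) of 0.24 and a 95% interval of -0.55 to 0.55 (adjusted p = 0.999, edgeR quasi-likelihood test with the culture pair as a block).

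H2-Ab1 (ENSMUSG00000073421, plus strand, chr17:34257689-34269419) encodes the beta chain that pairs with H2-Aa. Its levels were 1.45, 1.85, 0.921 and 1.81 CPM in control replicates 1 to 4 and 1.29, 1.43, 1.47 and 1.78 CPM in the IgG replicates. The lowest library was control replicate 3, and the IgG libraries all lay inside the control range. The mean was 1.51 ± 0.43 CPM in control and 1.49 ± 0.202 CPM in IgG cultures (SD, n = 4 each). The log2 fold change was 0.01 (SE 0.25, 95% interval -0.57 to 0.59, edgeR adjusted p = 0.99). Its sign turned to -0.09 when libraries were scaled by total counts, a scaling that moved the median of all genes by -0.1. For both I-A chains the interval leaves room for a change of about 0.5 on the log2 scale in either direction, so a smaller change was not detectable at this depth.

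H2-Eb1 (ENSMUSG00000060586, plus strand, chr17:34305867-34316674) encodes the beta chain of the I-E molecule. It had 4, 16, 25 and 9 counts in control replicates 1 to 4 and 4, 7, 7 and 13 counts in the IgG replicates, or 0.166, 0.722, 1.05 and 0.388 CPM against 0.185, 0.304, 0.344 and 0.592 CPM. The groups overlapped, and replicate 1 was lowest in both. With sums of 54 and 31 counts it did not pass the filter on low counts, which left 17537 genes and 6 of the 7 genes examined. Fitted without the filter, its log2 fold change was -0.62 (SE 0.49, 95% interval -1.61 to 0.38, edgeR adjusted p = 0.895). An antisense gene, Gm20513, overlaps it, and whether the counting used strand is not given in the sources used here. The gene of the I-E alpha chain is annotated as a pseudogene, H2-Ea-ps, and had 1 count in control replicate 3 and 1 in IgG replicate 3. H2-Eb2, a further class II beta gene, had no count in any library.

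The promoter stretches of H2-Aa and H2-Eb1 are shown for the promoter elements found in them, of which H2-Aa holds only some. RefSeq promoter windows on GRCm38.p6, from 250 bases before to 50 bases after the start site, were matched for 4 of the 7 genes, H2-Aa, H2-Eb1, H2-DMa and H2-DMb1. H2-DMb1 is not printed because an annotated exon overlaps its stretch. The stretch of H2-Ob, a class II gene of similar abundance, is added to compare the spacing. Each runs 5′ to 3′ from 115 to 26 bases before the start site, at chr17:34287849-34287938 (minus strand), chr17:34305752-34305841 (plus strand) and chr17:34238790-34238879 (plus strand). Capitals mark, on either strand, AGNAAC (core of the X box, bound by RFX), TGACG (X2 box, CREB) and ATTGG (Y box, NF-Y).
H2-Aa: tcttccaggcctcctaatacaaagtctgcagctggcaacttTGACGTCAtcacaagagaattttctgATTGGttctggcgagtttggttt
H2-Eb1: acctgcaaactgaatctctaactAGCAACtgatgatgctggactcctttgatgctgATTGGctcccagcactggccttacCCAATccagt
H2-Ob: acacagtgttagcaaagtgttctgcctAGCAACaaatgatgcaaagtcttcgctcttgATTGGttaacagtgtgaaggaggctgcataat

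In H2-Eb1 the X core began 92 bases and the Y core 59 bases before the start site, 33 bases apart on the same strand. The starts were 34 bases apart in H2-DMb1 and H2-Oa, 31 in H2-Ob and 33 in H2-Eb2. The window of H2-DMb2 held a Y core at 90 bases but no such pair. H2-Aa had no AGNAAC in its window, but had the Y core at 48 bases and TGACG at 74 bases, where it overlaps its own match on the opposite strand. The windows of H2-DMa, of which there were 2, held no such pair. Both cores are common on their own, AGNAAC in 48.1% and ATTGG in 37.4% of 32851 mouse promoter windows, and TGACG in 20.8%. An X core followed by a Y core on the same strand with starts 30 to 35 bases apart, a range set after these windows were seen, was found in 48 windows, or 0.146%. The interferon-γ element TTCNNNGAA was in none of the windows of these 4 genes, at 218 bases before the start site in H2-DMb2, and in 8.3% of all windows. A match describes letters only, and binding was not measured.

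H2-DMa and H2-DMb1 encode the alpha and beta chain of DM, the editor of class II peptides. H2-DMa (ENSMUSG00000037649, plus strand, chr17:34119541-34139101) held 19.4, 18.3, 17.8 and 19.3 CPM in control replicates 1 to 4 and 15.2, 19.3, 14.2 and 14.7 CPM in the IgG replicates. IgG libraries 1, 3 and 4 lay below all control libraries, and IgG replicate 2 lay within the control range. The means were 18.7 ± 0.768 and 15.8 ± 2.31 CPM (SD, n = 4 each). The log2 fold change was -0.25 (SE 0.12, 95% interval -0.52 to 0.02, edgeR unadjusted p 0.0689 and adjusted p = 0.519). Without IgG replicate 2 it was -0.35 with an unadjusted p of 0.00619 and an adjusted p of 0.284 (edgeR, no block), so it did not pass there either. Without IgG replicates 1 and 3 it was -0.14 (edgeR adjusted p = 0.786). The gene overlaps Brd2 and 2 other annotated genes on the opposite strand, and CR974462.3 on its own strand, which a stranded count would not separate either.

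H2-DMb1 (ENSMUSG00000079547, plus strand, chr17:34153072-34160230) held 6.93, 5.5, 11.2 and 5.73 CPM in control replicates 1 to 4 and 6.38, 7.17, 11.5 and 7.1 CPM in the IgG replicates. Replicate 3 stood far above the others in both groups, and the groups overlapped. The means were 7.33 ± 2.64 and 8.05 ± 2.35 CPM (SD, n = 4 each), and the log2 fold change was 0.15 (SE 0.14, 95% interval -0.17 to 0.47, edgeR adjusted p = 0.696). The sign turned to -0.09 when IgG replicate 3 was left out of the fit without the block. H2-DMb2, a close copy next to it, held 8.14 ± 1.76 and 8.93 ± 0.907 CPM (SD, n = 4 each) with a log2 fold change of 0.15 (SE 0.15, edgeR adjusted p = 0.708). Reads shared by the copies could have been split or dropped by the counting, so single values of this pair are uncertain.

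Cd74 (ENSMUSG00000024610, plus strand, chr18:60803848-60812652), the invariant chain, was the most abundant of the 7 genes. Control replicates 1 to 4 held 28.8, 34.5, 30.6 and 28.2 CPM and the IgG replicates held 38.1, 36.1, 37.6 and 41.6 CPM, from 655 to 915 counts. The lowest IgG library exceeded the highest control library. The means were 30.5 ± 2.84 and 38.4 ± 2.35 CPM (SD, n = 4 each). This is 0.33 on the log2 scale (SE 0.11, 95% interval 0.09 to 0.58). The unadjusted p was 0.014 with the block and 0.00486 without it, and the adjusted p was 0.377 and 0.692 (edgeR), so the difference did not pass the correction over all genes. Without IgG replicates 1 and 3, which had the high mitochondrial shares, the log2 fold change was 0.35 (edgeR unadjusted p 0.009 and adjusted p = 0.729), and with total-count scaling it was 0.23 (edgeR adjusted p = 0.418). The pairs differed in size, by 0.4, 0.06, 0.3 and 0.56 in log2 CPM for replicates 1 to 4.

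Ciita (ENSMUSG00000022504, plus strand, chr16:10480059-10528418), the activator of the genes above, was close to the limit of detection. It had 11, 21, 13 and 13 counts in control replicates 1 to 4 and 14, 13, 6 and 11 counts in the IgG replicates, or 0.456, 0.947, 0.544 and 0.56 CPM against 0.647, 0.565, 0.295 and 0.501 CPM. The groups overlapped, with the highest level in control replicate 2 and the lowest in IgG replicate 3. The means were 0.627 ± 0.218 and 0.502 ± 0.151 CPM (SD, n = 4 each). The log2 fold change was -0.31 (SE 0.36, 95% interval -1.13 to 0.52, edgeR adjusted p = 0.757). Dexi overlaps Ciita on the opposite strand. Ifng, the interferon-γ gene, had no count in any of the 8 libraries, which allows up to 0.141 CPM in a library.

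**Figure D1:**
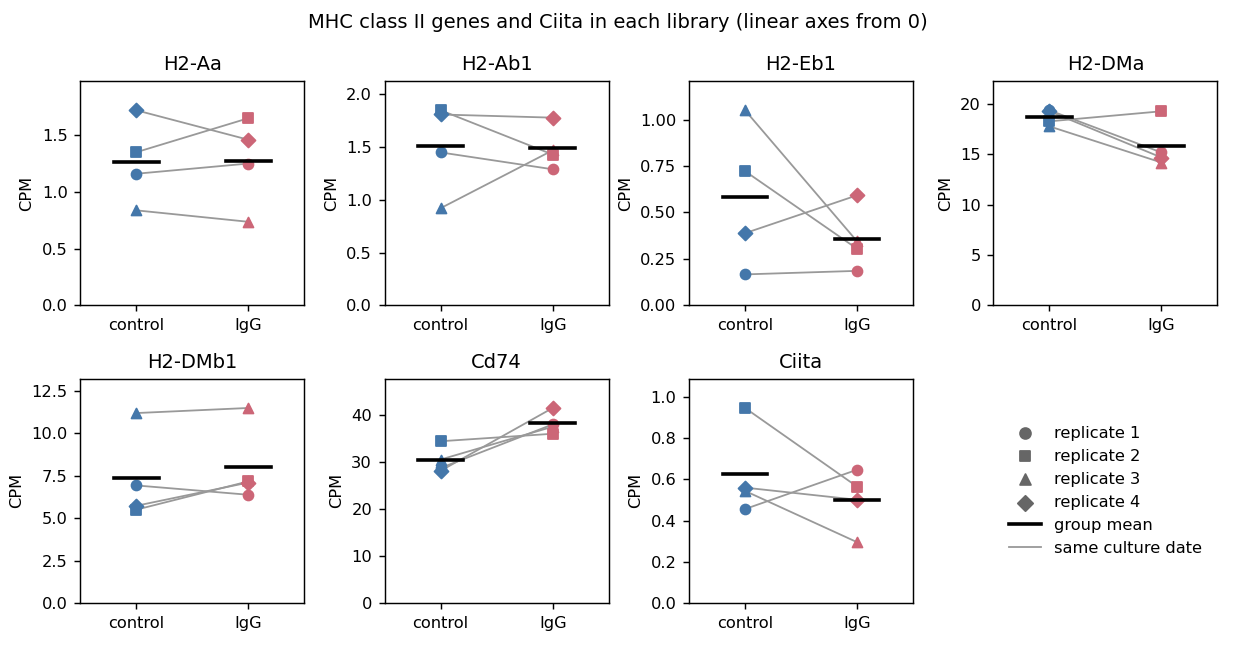
Level of each of the 7 genes in CPM (linear axes from 0) in the 4 control and 4 IgG libraries, with symbols for the replicate number, grey lines joining cultures of the same date and black bars for group means. Cd74 is the gene whose IgG libraries (36.1 to 41.6 CPM) all lie above its control libraries (28.2 to 34.5 CPM), and H2-DMb1 is highest in replicate 3 of both groups.

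None of the 6 tested genes passed an adjusted p of 0.05, where 69 of 17537 genes, or 0.393%, did so with the block, all of them higher with IgG. Without the block no gene of the whole table passed, while 1230 genes (7.01%) had an unadjusted p under 0.05, among them Cd74. With the block the share at an unadjusted p under 0.05 was 10.2% of all genes (6.35% higher and 3.85% lower) and 1 of the 6, again Cd74. Cd74 was also the gene of the 6 whose groups did not overlap, where 2.6% of all genes were higher and 1.57% lower in that way, and the one higher in all 4 pairs, where 10.4% of all genes were higher and 8.47% lower. At an unadjusted p under 0.01 with an absolute log2 fold change above 0.5, none of the 6 was called, against 320 genes (1.82%) with the block and 148 (0.844%) without it. The median log2 fold change of the 6 genes was 0.01, beside -0.01 over all genes tested. Within the pairs their median change was -0.01, 0.07, -0.06 and -0.08 in replicates 1 to 4.

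Levels were compared between genes as CPM per kilobase of merged exons. Cd74 was highest with 20.5, above 84.4% of the tested genes. H2-DMa followed with 5.01 (53.6%) and H2-DMb1 with 4.58 (51.3%), both in the middle of the distribution. H2-Ab1 with 0.584 (14.5%), H2-Aa with 0.335 (8.88%) and H2-Eb1 with 0.241 (6%) were among the low genes. Ciita had the lowest value, 0.0592, with 0.377% of the tested genes below it. Over the 8 libraries Cd74 did not overlap H2-DMa, and H2-DMb1 did not overlap H2-Ab1. The ranges of H2-DMa and H2-DMb1, of H2-Ab1 and H2-Aa, of H2-Aa and H2-Eb1, and of H2-Eb1 and Ciita overlapped. H2-Ab1 was nevertheless above H2-Aa in 8 of 8 libraries and H2-Eb1 above Ciita in 8 of 8. The order was the same with the longest transcript as the length, where Cd74 had 24.4 and H2-DMa 8.61 CPM per kilobase.

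The invariant chain exceeded the chains it chaperones by a wide margin. Per kilobase of exon, the level of Cd74 was 23.9 to 50.8 times H2-Ab1 and 37 to 116 times H2-Aa across the 8 libraries. With the longest transcript as the length these ratios were 13.4 to 28.5 for H2-Ab1 and 37.4 to 117 for H2-Aa. The ratio of H2-DMa to H2-DMb1 was 0.602 to 1.64 per kilobase of merged exons and 0.864 to 2.36 with the longest transcript, lowest in replicate 3 of each group either way. In IgG replicate 3 it was below 1 with either length, whereas control replicate 3 was at 0.776 with merged exons and at 1.11 with the longest transcript. Class I was on another scale altogether. B2m, the light chain of class I, was 2230 to 6260 times H2-Ab1, and the heavy chain H2-K1 was 260 to 802 times H2-Ab1, or 1050 to 2960 and 192 to 593 times with the longest transcript.

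**Figure D2:**
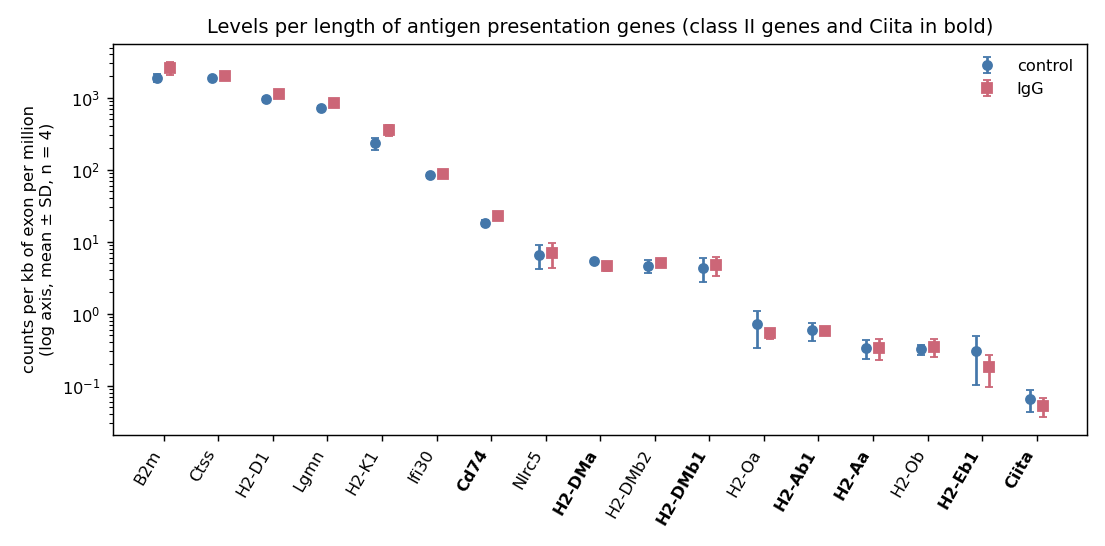
CPM per kilobase of exon (log axis) of class II genes and Ciita, in bold, and of other antigen presentation genes, as mean ± SD of 4 control and 4 IgG libraries. Cd74 (mean 20.5 over the 8 libraries) lies far above H2-Ab1 (0.584), and both lie far below B2m and Ctss.

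Levels were also compared between the dates in the labels, which may mark the culture or a later step. In a test of the replicate number, chosen after the values had been seen, H2-DMb1 had means of 6.65, 6.34, 11.4 and 6.41 CPM in replicates 1 to 4, a ratio of 1.79 between the highest and the lowest (edgeR unadjusted p 0.0047 and adjusted p = 0.184). None of the 6 genes passed this test after adjustment, against 0.975% of all genes. H2-Aa ran the other way, with 1.2, 1.5, 0.787 and 1.59 CPM (edgeR adjusted p = 0.574). Cd74 was the most even of the 6, with 33.4 to 35.3 CPM and a ratio of 1.06. The 8 libraries share dates in pairs, so correlations over them are a description only. Log2 CPM of H2-DMb1 correlated with H2-Aa at -0.86, with Ciita at -0.7 and with H2-Ab1 at -0.67, whereas H2-Aa and H2-Ab1 correlated at 0.6. Cd74 and H2-DMa correlated at -0.78, and Cd74 and Ciita at -0.07. The counts of the low genes are small, so sampling noise enters these values.

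Genes whose pattern was most like the mean of H2-Aa, H2-Ab1 and Cd74 were sought among the other tested genes, by the correlation of log2 CPM over the 8 libraries. Fnbp1 and Gm9118 had a correlation of 0.98, and Lipn, Rab33a and Gm21769 had 0.95. Their mean levels were 103, 12.2, 0.831, 0.567 and 1.77 CPM in that order. None of them differed between the groups after adjustment, with edgeR adjusted p-values of 0.24 to 0.954. High values of this kind are to be found among 17537 genes over so few libraries, and no class II gene was among the 5.

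The accessory genes of the pathway, 13 in all with 11 tested, held none that passed the adjusted test, and 1 with an unadjusted p under 0.05. With 1 of 11 genes, where 10.2% of all genes had such a p, the list did not stand out in number. That gene was Lgmn, an asparagine endopeptidase of lysosomes, with a log2 fold change of 0.23 (edgeR adjusted p = 0.475). It is named because it was the only one, after its value was seen. Ctss, the protease that trims the invariant chain, held 2550 ± 128 CPM in control and 2770 ± 217 CPM in IgG cultures (SD, n = 4 each), with a log2 fold change of 0.12 (SE 0.1, edgeR adjusted p = 0.67). March1, a ligase that removes class II from the surface, had a log2 fold change of 0.36 (SE 0.2, edgeR adjusted p = 0.578), with changes of 0.78, 0.17, 0.89 and -0.45 in pairs 1 to 4. H2-Oa and H2-Ob, which form the inhibitor of DM, had log2 fold changes of -0.34 (SE 0.35, edgeR adjusted p = 0.732) and 0.1 (SE 0.22, edgeR adjusted p = 0.882). Control H2-Oa was 1 ± 0.528 CPM and control H2-Ob 1.73 ± 0.267 CPM (SD, n = 4 each). The median log2 fold change of this list was 0.1.

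Regulators of class II transcription, 21 genes with 19 tested, also held none past the adjusted test in this fit, and 1 with the likelihood ratio test, DESeq2, limma-voom or no filter on low counts. At an unadjusted edgeR p under 0.05, 1 was higher and 1 lower with IgG, where 6.35% and 3.85% of all genes were. Irf1, which acts on the interferon-γ promoter of Ciita, had a log2 fold change of -0.07 (SE 0.11, edgeR adjusted p = 0.826). Socs1, a brake on interferon signalling, stood at 2.46 ± 0.404 CPM in control cultures and at 1.45 ± 0.369 CPM with IgG (SD, n = 4 each). Its groups did not overlap, where 1.57% of all genes were lower in that way. The log2 fold change of Socs1 was -0.77 (SE 0.27, edgeR adjusted p = 0.413), with changes of -1.46, -0.85, -0.67 and -0.02 in pairs 1 to 4. Of the RFX subunits, Rfx5 was at 15.9 and 16 CPM, Rfxank at 31.5 and 30.9 CPM, and Rfxap at 14.5 and 13.1 CPM in control and IgG cultures. Their edgeR adjusted p-values were 0.725 to 0.976. The median log2 fold change of the list was -0.01.

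Costimulatory molecules, 5 genes all tested, held none past adjustment and 2 with an unadjusted p under 0.05, both higher, where 6.35% of all genes were higher in that way. Icosl, the ligand of ICOS, stood at 9.86 ± 1.7 CPM in control cultures and at 13.6 ± 1.32 CPM with IgG (SD, n = 4 each). The groups of Icosl did not overlap, where 2.6% of all genes were higher in that way. Its log2 fold change was 0.47 (SE 0.13, edgeR adjusted p = 0.301). Cd86, a ligand of CD28, had a log2 fold change of 0.41 (SE 0.13, edgeR adjusted p = 0.367), with overlapping groups. Its pairs differed by 0.61, 0.16, 0.72 and 0.14, so it was larger in pairs 1 and 3, whose IgG libraries had the high mitochondrial shares, and their part in it was not tested. The list median was 0.39.

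Class I genes were taken for comparison, 13 genes all tested. None passed the adjusted test in this fit, but H2-K1, B2m, Tap1 and Tapbp, which bridges the transporter and the heavy chain, did so without the filter on low counts, at edgeR adjusted p-values of 0.000406, 0.00635, 0.00678 and 0.0194. The same 4 genes passed with the likelihood ratio test of edgeR and with DESeq2. None of the class II genes and Ciita did in any of these fits. Over all genes these fits called 376, 327 and 231, against 69 in the main fit. None of the 13 was called without the block, with other scalings or with at least 10 counts required in every library. The SEs of H2-Aa, H2-Ab1 and Ciita were 0.24, 0.25 and 0.36, against 0.1 for H2-K1. A change of the same size was therefore harder to call in these low genes. Of the 13, 8 had an unadjusted p under 0.05, all higher with IgG, where 6.35% of all genes were, and without the block 5 did, where 4.83% of all genes were. All 13 log2 fold changes were above 0, though that of Nlrc5 turned below 0 with total-count scaling. The median was 0.33, and the pair medians were 0.21, 0.29, 0.22 and 0.5, where those of the class II genes ranged from -0.08 to 0.07. H2-K1 stood at 687 ± 138 CPM in control cultures and at 1040 ± 180 CPM with IgG (SD, n = 4 each), without overlap, where 2.6% of all genes were higher in that way. Its log2 fold change was 0.6 (SE 0.1, edgeR adjusted p = 0.0509). Tap1, a subunit of the class I peptide transporter, was at 0.53 (SE 0.09, edgeR adjusted p = 0.052) and B2m at 0.47 (SE 0.1, edgeR adjusted p = 0.143). Nlrc5, the class I counterpart of Ciita, was at 0.07 (SE 0.09, edgeR adjusted p = 0.777) and, unlike Ciita, was well measured at 55.7 ± 20.2 CPM in control cultures (SD, n = 4). The 95% interval of H2-K1, 0.38 to 0.82, did not overlap that of H2-DMa, but overlapped those of the other tested class II genes and Ciita. The difference between the classes was not tested.

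**Figure D3:**
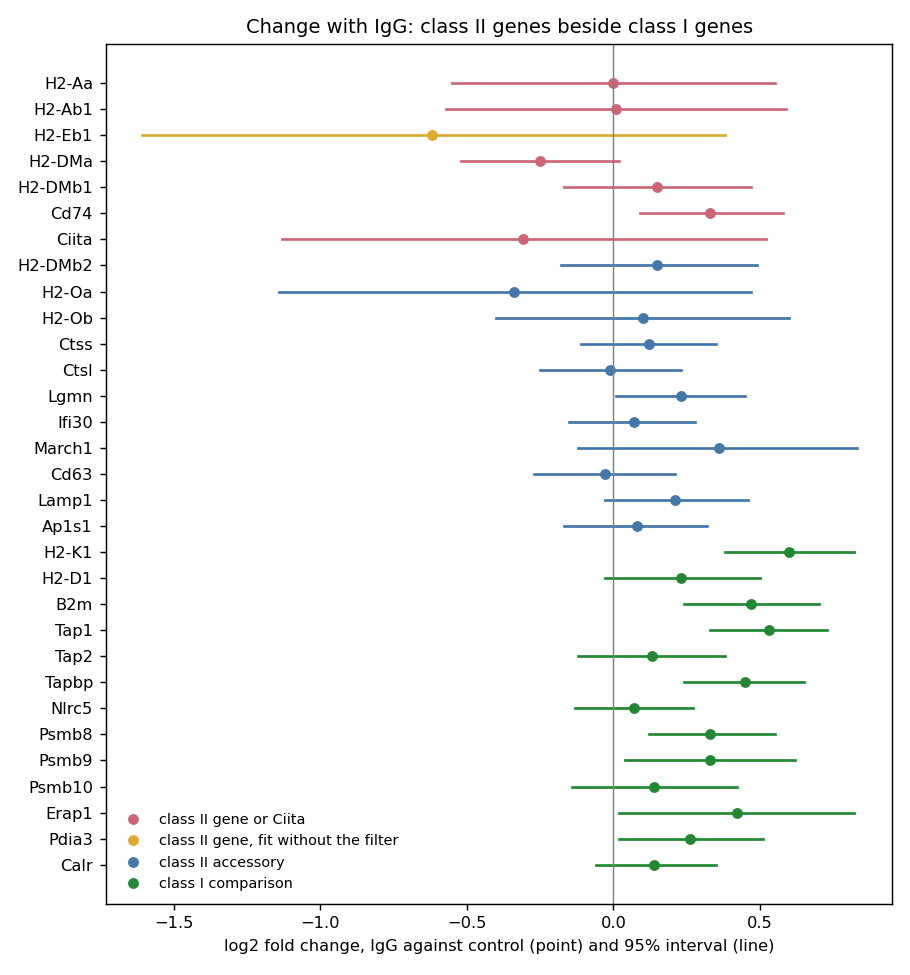
Log2 fold change of IgG against control with its 95% interval for class II genes and Ciita, class II accessory genes and class I genes, from the fit with the culture pair as a block. H2-Aa and H2-Ab1 lie at 0 and 0.01, Cd74 is at 0.33, and all 13 class I genes lie above 0, from Nlrc5 at 0.07 to H2-K1 at 0.6 (Nlrc5 turns below 0 with total-count scaling).

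**Figure D4:**
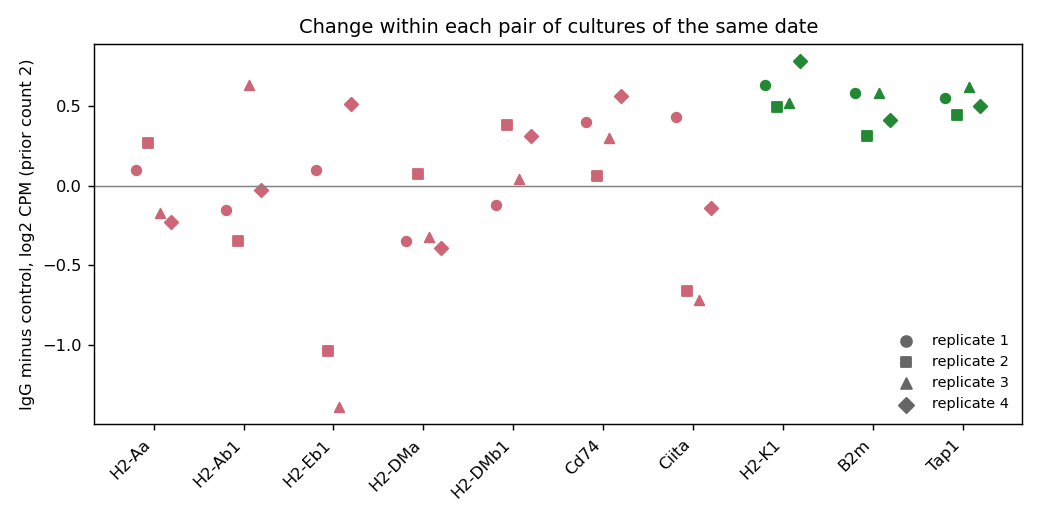
IgG minus control in log2 CPM (prior count of 2) for each pair of cultures of the same date, for the 7 genes (red) and for H2-K1, B2m and Tap1 (green), with a symbol for each replicate number. All 4 pairs lie above 0 for Cd74 (0.06 to 0.56) and for the green genes, and on both sides of 0 for the other 6 genes.

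Marker lists of other cells were set beside these values. Border-associated macrophages are known for class II expression. The summed level of their 7 markers was 218 to 310 CPM in control and 311 to 443 CPM in IgG libraries, ranges that almost touched. That sum is mostly Ms4a7, with 201 CPM in control and 306 CPM in IgG cultures, and Mrc1, with 67.1 and 79 CPM and overlapping groups. Cbr2 was higher in all 4 pairs, at 0.592 and 1.31 CPM (log2 fold change 1.23, SE 0.3, edgeR unadjusted p 0.00325 and adjusted p = 0.22), and F13a1 was at 0.548 and 0.451 CPM (log2 fold change -0.31, edgeR adjusted p = 0.74). Of that list Ms4a7 passed the adjusted test with the block (log2 fold change 0.61, SE 0.09, edgeR adjusted p = 0.0381), while the defining markers Cd163 and Lyve1 had at most 3 and 5 counts in every library. Microglia markers summed to 4820 to 5250 CPM in control and 5040 to 6240 CPM in IgG libraries, and 2 of them, Aif1 and Fcrls, rose with IgG with the block (log2 fold changes 0.69 and 0.83, edgeR adjusted p = 0.0331 and 0.0329). None of these passed without the block. The summed B cell markers were 0.796 to 1.58 CPM and 0.933 to 2.09 CPM, and 4 of 5 T and NK cell markers had no count in any library. Dendritic cell markers summed to 637 to 812 and 599 to 733 CPM, nearly all of it Itgax. Of the low genes of that list Xcr1, with 5 to 17 counts per library, was higher in all 4 pairs without overlap, at 0.3 and 0.597 CPM (log2 fold change 1, SE 0.36, edgeR unadjusted p 0.0216 and adjusted p = 0.421). Of all genes, 10.4% were higher in all 4 pairs and 2.6% were higher without overlap. The other tested dendritic cell markers went the other way. Log2 fold changes were -0.18 for Itgax, lower in all 4 pairs, -0.17 for Zbtb46 and -0.37 for Batf3 (edgeR adjusted p = 0.528, 0.799 and 0.622). The median of the tested genes of that list was -0.17. In the other lists Olig2 of the oligodendrocyte lineage and Ccr2 of monocytes were lower in all 4 pairs with overlapping groups. Their log2 fold changes were -0.5 (SE 0.12, edgeR unadjusted p 0.00376 and adjusted p = 0.235) and -0.76 (SE 0.31, edgeR unadjusted p 0.0379 and adjusted p = 0.472). These single markers were named after their values were seen. Monocyte markers summed to 0.732 to 1.51 and 0.478 to 0.834 CPM. Oligodendrocyte lineage markers summed to 1010 to 1570 and 847 to 1480 CPM, astrocyte markers to 94.8 to 110 and 89.3 to 105 CPM, fibroblast markers to 2.26 to 4.56 and 3.01 to 5.01 CPM, and neuron markers to 2.24 to 4.39 and 1.62 to 3.61 CPM. The part of other cells in the difference of Cd74 was not tested.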

How the data were processed

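RNA sequencing counts of 8 cultures of primary mouse microglia, 4 control and 4 IgG, were analysed, with the groups taken from the sample labels. The deposited table gives raw counts, in whole numbers, for each Ensembl identifier. Per the labels and the methods of the study, the authors used poly(A) RNA, aligned reads to GRCm38 (mm10) and counted them. The submitters' processing notes name HISAT2 2.2.1, SAMtools 1.12, Picard 2.26.3, featureCounts and edgeR 3.36.0. The annotation, the use of strand and the treatment of reads with several alignments are not given in the sources used here, so overlapping genes and close copies are uncertain. The control is untreated in the labels and vehicle-treated in the methods.

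Names, coordinates and exon lengths came from GENCODE M21 (55144 of 55385 identifiers matched). Counts were scaled with TMM, filtered with filterByExpr (17537 genes left) and compared by edgeR 4.0.16 (quasi-likelihood test, R 4.3.3), with group and replicate number as terms and Benjamini-Hochberg adjustment over all tested genes. A call is an adjusted p under 0.05. Intervals of fold changes are 95% intervals from the fitted standard errors. Log2 CPM used a prior count of 2. The limit of 3 counts covers counting error only. The replicate numbers pair the cultures because the labels give same-numbered libraries the same date. As a check, the distances of libraries from their group mean correlated between same-numbered libraries at 0.35, 0.27, 0.22 and 0.28. Between libraries of different numbers the correlations were -0.3 to 0.16. These are taken over 17537 genes, which are not independent replicates. Within each group, every pair of libraries differed by more than sampling noise.

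The genes, lists and tests were chosen with earlier results of these data known. Named genes were the 7 genes, called genes and the 2 with the largest absolute log2 fold change in each pathway list, a fixed set (among them Irf1, Nlrc5, B2m, H2-K1, Ctss, Ifng, H2-DMb2, H2-Oa, H2-Ob) and the 5 of likest pattern. Alternatives were the fit without the block, edgeR's likelihood ratio test, DESeq2 1.42.0, limma-voom (limma 3.58.1), other scalings and filters, left-out libraries, and a correction for GC content and length. The statistics were tested on simulated data. The simulation gave both groups the same spread, so it does not cover the larger differences among the IgG libraries. Some genes of the lists are not reported here.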

Additional observations from a re-analysis of the deposited data

Results flagged for a closer look

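The H2-DMb1 level of IgG replicate 3, 11.5 CPM, lay far from the other IgG libraries at 6.38 to 7.17 CPM, with a gap of 0.846 of the whole range, above the critical value of Dixon's test for 4 samples. Control replicate 3, of the same date, was also the highest of its group at 11.2 CPM. The Icosl level of control replicate 4, 7.32 CPM, lay below the other control libraries at 10.5 to 11 CPM, with a gap of 0.872 of the range. Of 42 groups examined in this way 2 stood out, and chance gives about 1 in 20.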

How the results depend on the processing

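None of the tested class II genes and Ciita was called in any of the 22 alternatives, each of which refitted all genes. Cd74 stayed above 0 in all of them, at 0.23 to 0.42 with a smallest adjusted p of 0.15 (edgeR, without IgG replicate 4), and H2-DMa below 0, at -0.36 to -0.14 with a smallest adjusted p of 0.284. With total counts H2-DMa, at -0.35 with an unadjusted edgeR p of 0.0302, and not Cd74 (0.0543), was the gene under an unadjusted p of 0.05. Ciita ranged from -0.58 to -0.04 and H2-Eb1, where fitted, from -1 to -0.37. The filter of at least 10 counts in every library removed Ciita, and DESeq2 gave it no adjusted p. The I-A chains had no stable direction. H2-Aa was 0.01 without the replicate block, 0 with the likelihood ratio test and limma-voom, 0.29 without IgG replicates 1 and 3 (chosen after seeing the data), and -0.14 to 0.2 when replicates were left out (0.05 and 0.08 without pairs 3 and 4, 0.04 to 0.18 above 0 without a control and 0.02 to 0.2 without an IgG library). H2-Ab1 was -0.01 without the block, 0 with limma-voom, -0.09 with total counts, -0.02 with the 10-count filter and -0.19 to 0.14 when replicates were left out (-0.18 without pair 3, -0.19 and -0.03 below 0 without a control and -0.1 without an IgG library). H2-DMb1 was -0.04 without IgG replicates 1 and 3 and -0.09 to 0.41 when replicates were left out, with -0.09 without IgG replicate 3. Over all genes the 69 calls became 0 without the replicate block that pairs the cultures, and 327 with the likelihood ratio test, 231 with DESeq2, 37 with total counts, 376 without the filter, 0 to 182 when replicates were left out (0 without replicate 2, 14 without 1, 16 without 3, 182 without 4, and 0 to 6 without a single library and without the block), 1 without IgG replicates 1 and 3, and 218 after a correction for GC content and length (both added after seeing the data). The cause was not tested. Of the class I genes, 4 were called with the likelihood ratio test, DESeq2, no filter or the GC and length correction, 1 with limma-voom and 2 without replicate 4, and of the regulators of class II 1 in each of these (0 in the other fits, list counts beyond the block added after seeing the data). No class II accessory or costimulation gene was called in any alternative. The 320 genes past the unadjusted criterion became 148 without the block. The per-length level of Cd74 over the next gene was 4.1, against 1.99 in CPM and 2.84 with the longest transcript as the length. Low counts limit the I-A chains, H2-Eb1 and Ciita.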
